A study of Mus musculus with 4 samples.

Results

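Messenger RNA of 29 genes that carry pyruvate into mitochondria, oxidise it, run the citric acid cycle or feed and drain it was followed through RNA taken from polysomes, the fraction of messenger RNA that carries several ribosomes. The genes were taken by symbol from a named list, and all 29 had a row among the 18200 genes of the table. The cells were mouse ADSCs of WT genotype, as the labels call them, which the series title places among mesenchymal stem cells. There were 4 libraries, 2 of cells with a scrambled control and 2 of cells with an shRNA against Ifit1 (labelled IFIT1 knockdown). Replicate 1 of each group was in batch 1 and replicate 2 in batch 2. The labels used here give no strain, age or number of animals, and do not say whether the replicates were separate cultures, so the p-values cover the spread of these libraries alone, which may be technical. Levels are FPKM, fragments scaled to gene length and library depth. Total RNA is not analysed here, so message amount and ribosome loading cannot be told apart, and fewer cells of a type cannot be told apart from less RNA per cell.

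Pyruvate made by glycolysis crosses the inner mitochondrial membrane through a carrier of paired Mpc subunits. The pyruvate dehydrogenase complex then turns it into acetyl-CoA, or pyruvate carboxylase turns it into oxaloacetate, which refills the cycle. Citrate synthase joins acetyl-CoA and oxaloacetate, and the following dehydrogenases pass electrons to NAD for the respiratory chain. Citrate, malate, aspartate and glutamate link the cycle to the cytosol through isozymes and carriers, and stromal cells draw on these links for lipid synthesis and redox balance.

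Ifit1 itself was at 1.93 and 1.91 FPKM in the scrambled libraries and at 13.9 and 14.8 in those labelled knockdown, opposite to the label, so each direction given compares libraries by their labels, knockdown with scrambled. The replicates of all tested genes differed in an unusual way. Across 8750 tested genes, the difference between replicates 1 and 2 in one group mirrored that in the other (Pearson's r = -0.83, across genes, which are not independent replicates). In 2281 genes (26.1%) the replicates differed by at least 0.1 on log2(FPKM + 1) in both groups and in opposite directions, and in 7 genes in the same direction. Changes taken across the replicate numbers, from scrambled 1 to knockdown 2 and from scrambled 2 to knockdown 1, differed from each other by a median of 0.268 counting SDs, where counting error alone gives 0.674, with fragment numbers taken as the smallest that the FPKM allow. On those numbers, libraries paired across the replicate numbers agreed more closely than independent counting gives, so the independence of the 4 libraries is in doubt, and every standard error and adjusted p given here assumes it. Library totals of recovered fragments ran from 24448952 to 29825482. Mesenchymal stromal markers (6 of 10 listed were tested, and all 6 rose) summed to 41.7 and 41.1 FPKM in the scrambled libraries and to 97.7 and 96.8 in those labelled knockdown. Epithelial markers (3 of 4 tested rose, 1 fell) summed to 167 and 163 against 99.7 and 101, and no marker with a row was at 0 in all 4 libraries. Leukocyte markers (4 of 8 listed had a row, 1 rose and 1 fell) summed to 9.12 to 9.35 FPKM in every library, and adipocyte markers (5 of 7, 1 rose and 2 fell) to 8.38 and 8.36 against 7.65 and 7.72. Endothelial markers (3 of 6, 1 rose) summed to 1.69 and 1.61 against 4.70 and 4.47, and the 1 of 5 myoblast markers with a row, not tested, to 0.223 and 0.225 against 0.868 and 0.919. The part of these marker differences in the results was not tested.

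**Figure D1:**
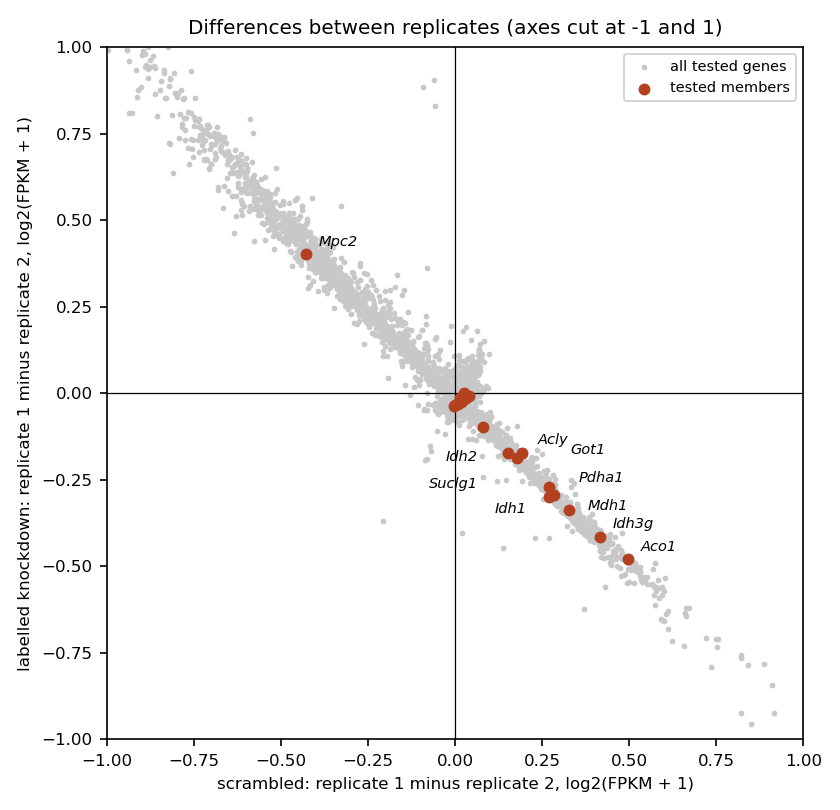
Difference between replicate 1 and replicate 2 on log2(FPKM + 1), for the scrambled libraries on the x axis and those labelled knockdown on the y axis. Each grey point is a tested gene and each red point a tested member, and 10 members lie away from the origin on the falling diagonal.

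Most of the measured genes of pyruvate oxidation and the cycle were lower where the label was knockdown. Of 28 tested members, 17 fell, 1 rose and 10 did not pass (limma, adjusted p under 0.05). That is 60.7% lower and 3.57% higher, beside 41.2% lower and 27.4% higher (68.7% in either direction) among all tested genes. The 29th member, Pcx, had a mean below 1 FPKM and was not tested. The tested members had a median log2 change of -0.42 (batch 1 alone -0.51, batch 2 alone -0.40), against -0.02 (-0.13 and -0.22) for all tested genes. The values of the libraries labelled knockdown lay wholly below the scrambled ones for 19 of the 28 and wholly above for 1, where all tested genes gave 44.4% and 30.1%. In sum, the 29 members took 0.331% and 0.302% of all FPKM in the scrambled libraries and 0.209% and 0.233% in those labelled knockdown. Their summed level was 1921 ± 82.2 FPKM (SD, n = 2) against 1527 ± 82.1, 20.5% lower.

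The members differed in how their replicates behaved. In 18 tested members the replicates of both groups lay within 0.1 of each other on the log2 scale, and of these 16 fell, 1 (Mpc1) rose and 1 (Fh1, just under that limit) did not pass. Among all 6252 tested genes with such close replicates, 56.7% fell and 36.6% rose. In the other 10 members (35.7%, against 26.1% of all tested genes) the replicates differed in opposite directions, and 1 of the 10, Acly, fell while 9 did not pass. Their standard errors, which come from the same replicate differences, ran from 0.095 to 0.28, against 0.015 to 0.053 in the 18. With each library centred on its median, the median change over all tested genes went from -0.02 to 0.15. Scaling to a common sum of FPKM moved it to -0.20, and 16 and 18 members then fell. Median-centring brought the log2 changes of 8 called members down by over 1.5 times, to -0.19 for Pdhb and Ogdh, -0.22 for Mdh2, -0.27 for Dld and Got2, -0.30 for Idh3b, -0.34 for Sucla2 and -0.33 for Acly, and all of these except Acly still passed. With a common sum of FPKM, Pdhb was at -0.55.

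**Figure D2:**
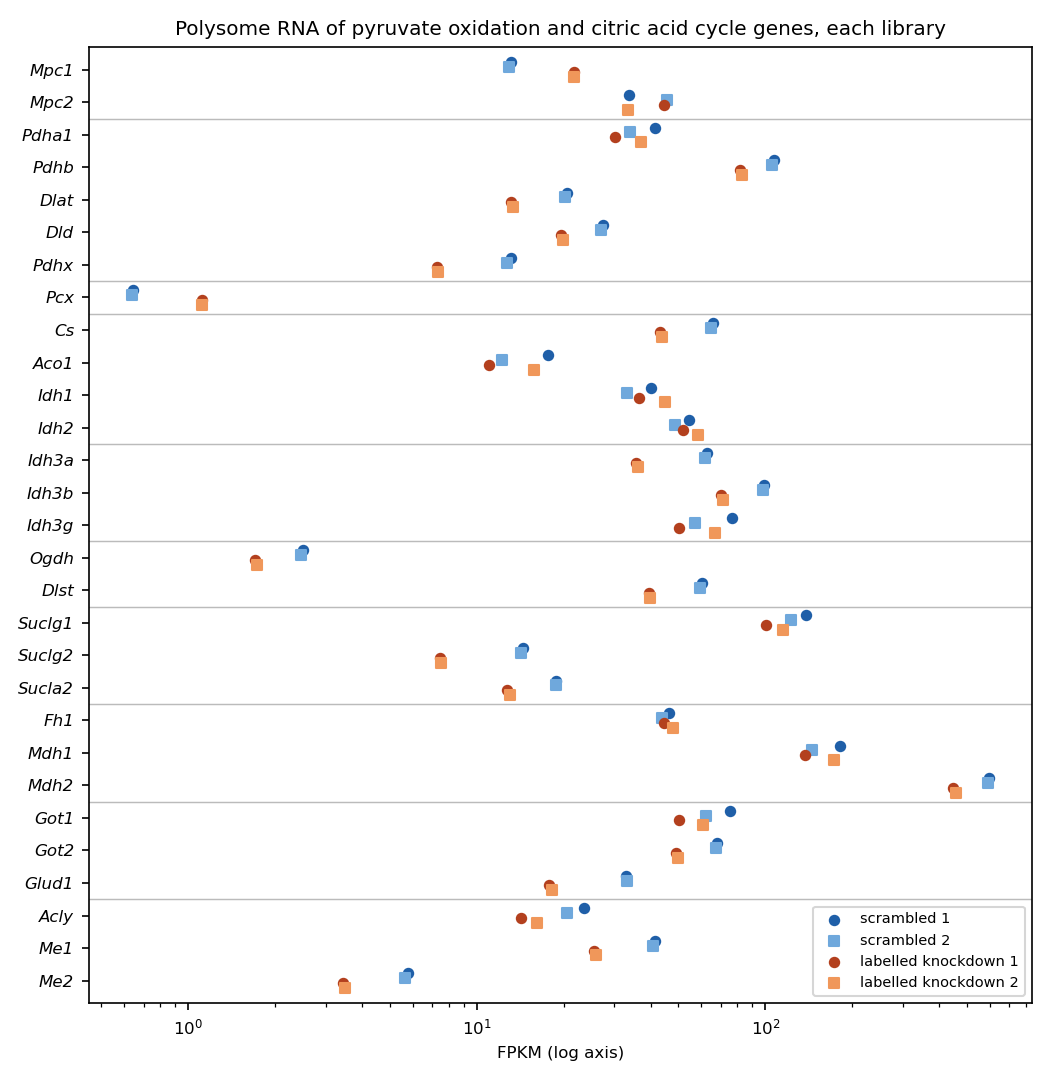
FPKM of the 29 members on a log axis, in order of their place in the pathway, with 1 point per library. Blue points are scrambled libraries and red and orange points those labelled knockdown; for Suclg2, Idh3a and Glud1 the colours are far apart, and for Mpc2, Idh3g and Mdh1 they interleave.

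At the entry of pyruvate, the carrier subunits differed from each other. Mpc1 was at 13.2 and 12.9 FPKM in the scrambled libraries and at 21.8 in both libraries labelled knockdown. It was the 1 tested member that rose, by 0.70 on the log2 scale (SE 0.018, adjusted p = 1.7e-04), and its groups did not overlap. Mpc2, its partner in the carrier, was at 33.6 and 45.5 FPKM against 44.4 and 33.4. Scrambled 1 lay close to knockdown 2 and scrambled 2 close to knockdown 1, so the groups overlapped fully (adjusted p = 0.99; log2 0.39 for batch 1, -0.44 for batch 2). A pseudogene, Mpc1-ps, is annotated for Mpc1 in GENCODE M21, and no source used here says how reads that match both were counted. Pyruvate carboxylase, Pcx, went the same way as Mpc1 at a far lower level, with 0.642 and 0.635 FPKM against 1.11 and 1.12. These rest on 89 and 107 fragments against 189 and 174, the smallest whole numbers that the FPKM allow. Pcx was 74.5% higher, and it passed when no filter was applied (log2 0.37, adjusted p = 4.2e-04).

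Of the 5 genes of the pyruvate dehydrogenase complex, 4 fell. Pdhx, the protein that binds the E3 component to the core, fell most, from 13.2 and 12.8 to 7.27 and 7.31 FPKM (log2 change -0.75 with SE 0.022, adjusted p = 1.8e-04). Dlat, the lipoate-carrying E2 core, fell from 20.6 and 20.2 to 13.2 and 13.3 FPKM. Dld, the E3 component shared with other 2-oxoacid dehydrogenases, fell from 27.4 and 26.9 to 19.6 and 19.8. In each of these genes both libraries labelled knockdown lay below both scrambled ones, by far more than the replicates differed. Pdhb, the beta subunit of the E1 decarboxylase, was the most abundant at 107 and 106 FPKM and fell to 81.8 and 83.3 (log2 -0.36, SE 0.020). Pdha1, the E1 alpha subunit, did not pass, at 41.3 and 33.8 FPKM against 30.1 and 37.1 (log2 change -0.16 with SE 0.17, adjusted p = 0.52). Its change was -0.45 in batch 1 and 0.13 in batch 2.

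**Figure D3:**
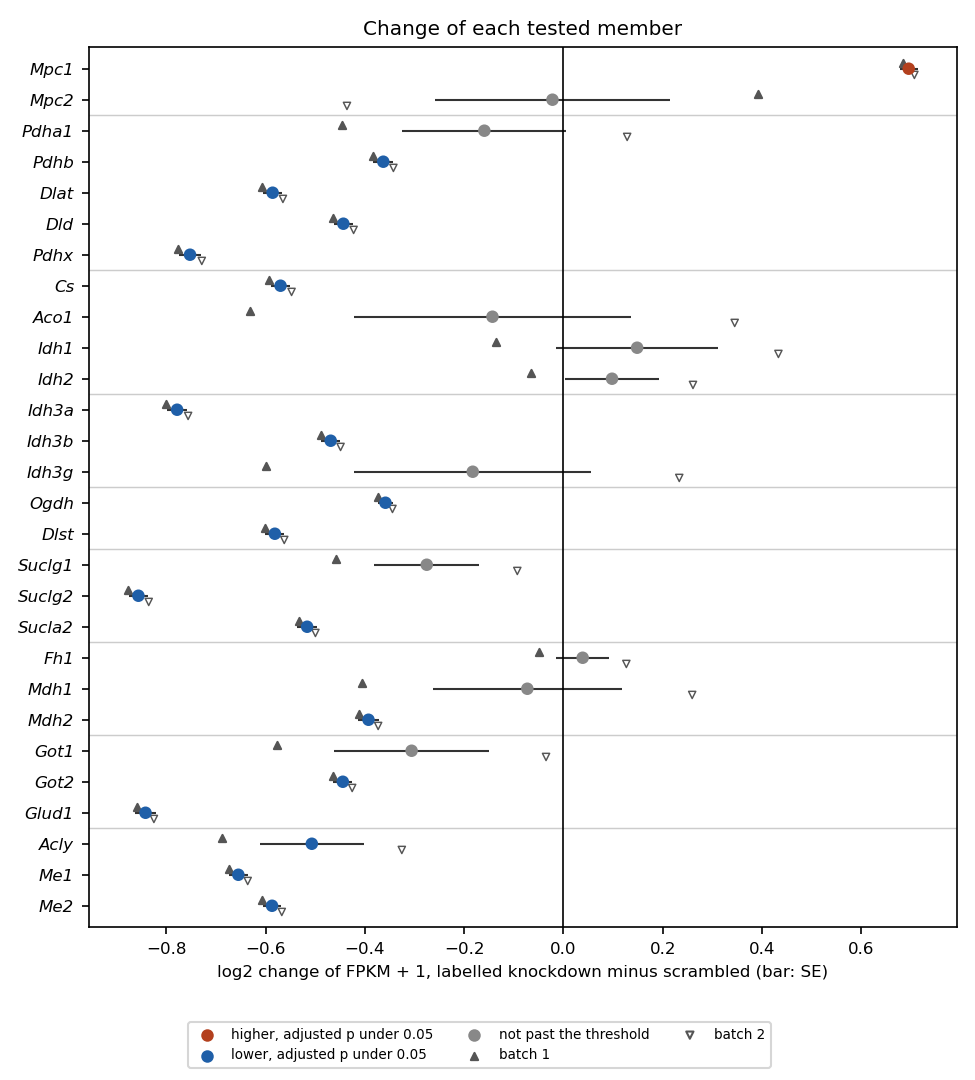
Log2 change of FPKM + 1 of each tested member, libraries labelled knockdown minus scrambled, with its standard error (bar), the value in batch 1 (filled triangle) and in batch 2 (open triangle). Blue points fell, the red point rose and grey points did not pass; 17 are blue, 1 is red and 10 are grey.

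On the way from citrate to 2-oxoglutarate, the synthase and the NAD-dependent dehydrogenase fell. Cs, citrate synthase, the enzyme that starts the cycle, fell from 65.7 and 64.8 to 43.3 and 44.0 FPKM (log2 change -0.57 with SE 0.020, adjusted p = 2.3e-04). Idh3a, the catalytic alpha subunit of NAD-dependent isocitrate dehydrogenase, fell from 62.9 and 61.6 to 35.7 and 36.1 FPKM, 42.4% lower (log2 -0.78, SE 0.020). Idh3b, a regulatory subunit of the same enzyme, fell from 99.0 and 98.0 to 70.2 and 71.5, 28.0% lower. Both stood clear of their replicate spread, with groups that did not overlap. Idh3g, the other regulatory subunit, was at 76.3 and 56.9 FPKM against 50.1 and 67.1, and did not pass (adjusted p = 0.63; log2 -0.60 for batch 1, 0.23 for batch 2).

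The NADP-dependent isocitrate dehydrogenases did not pass. Both means were higher in the libraries labelled knockdown, but lower after scaling to a common sum of FPKM (log2 -0.03 and -0.08). Idh1, the cytosolic and peroxisomal form, was at 40.1 and 33.1 FPKM against 36.4 and 45.0 (log2 0.15, adjusted p = 0.55). Idh2, the mitochondrial form, was at 54.2 and 48.6 against 51.8 and 58.5 (log2 0.10, adjusted p = 0.48). In both genes 1 library labelled knockdown lay within the scrambled range and the other above it. Aco1, the cytosolic aconitase that also binds iron-responsive elements of messenger RNA, was at 17.6 and 12.2 FPKM against 11.0 and 15.7 (adjusted p = 0.79). Its SD was 3.83 and 3.35 (n = 2 each), so the 10.2% lower mean lay within the replicate spread.

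From 2-oxoglutarate to succinate, 4 of 5 members fell. Dlst, the E2 core of the 2-oxoglutarate dehydrogenase complex, fell from 60.4 and 59.3 to 39.5 and 39.8 FPKM (log2 change -0.58 with SE 0.019, adjusted p = 2.1e-04). Ogdh, its E1 decarboxylase, was the least abundant tested member and fell from 2.49 and 2.46 to 1.70 and 1.73 FPKM (log2 -0.36, SE 0.015). Change fell with transcript length across the tested genes (Spearman's rho = -0.40), and with that trend taken out the change of Ogdh was -0.06 and that of Dlat -0.33. Its paralog Ogdhl, looked up after these values were seen, was at 0.149 and 0.197 FPKM against 0.351 and 0.243. Suclg2, the beta subunit of the GTP-forming succinyl-CoA ligase, fell from 14.5 and 14.2 to 7.43 and 7.53 FPKM, 47.9% lower. As fitted this was the largest fall of the tested members (log2 change -0.86 with SE 0.019, adjusted p = 1.6e-04). Idh3a and Glud1 fell more with the length trend taken out (log2 -0.69 and -0.67 against -0.64) and after quantile normalization (-0.74 and -0.75 against -0.71). Sucla2, the beta subunit of the ATP-forming enzyme, fell from 18.8 in both libraries to 12.7 and 13.0, 31.7% lower. Suclg1, the alpha subunit that both forms share, was at 138 and 122 FPKM against 101 and 115. Its groups did not overlap but it did not pass (log2 change -0.28 with SE 0.11, adjusted p = 0.11). Batch 1 alone gave -0.46 and batch 2 alone -0.09. It passed with that length trend taken out (adjusted p = 0.043) and after scaling to a common sum of FPKM (adjusted p = 0.026).

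RefSeq promoter windows (build GRCm38.p6, 250 bases before the gene's start to 50 after it) were found for 27 of the 29 members, 36 windows in all, and were searched on both strands for letters bound by factors known for nuclear-encoded mitochondrial genes. The 10-letter NRF1 motif was in windows of 2 members, Dld and Sucla2, and in 4.60% of all windows and 11.1% of those of tested genes. The ETS and GABP motif CCGGAAGT was in a window of 1 member, Dlst, and in 3.89% of all windows and 9.58% of those of tested genes. The ERR motif TCAAGGTCA was in no member's window and in 0.423% of all. The windows of these 3 members, all of which fell, are shown 5′ to 3′ on the gene's strand because they hold the matches, which are in capitals.
Dld (chr12:31351422-31351721, minus strand): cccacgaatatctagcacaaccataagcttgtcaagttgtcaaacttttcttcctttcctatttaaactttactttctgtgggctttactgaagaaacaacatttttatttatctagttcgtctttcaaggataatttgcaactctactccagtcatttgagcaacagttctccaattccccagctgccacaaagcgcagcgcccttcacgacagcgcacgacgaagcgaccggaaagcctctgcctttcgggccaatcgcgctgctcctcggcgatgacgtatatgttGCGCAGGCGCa
Dlst (chr12:85110583-85110882, plus strand): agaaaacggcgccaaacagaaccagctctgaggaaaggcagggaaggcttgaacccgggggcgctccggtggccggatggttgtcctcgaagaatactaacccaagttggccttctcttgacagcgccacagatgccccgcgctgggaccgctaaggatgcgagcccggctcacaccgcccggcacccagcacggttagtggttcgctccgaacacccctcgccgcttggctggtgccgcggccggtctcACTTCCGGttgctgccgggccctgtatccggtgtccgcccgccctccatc
Sucla2 (chr14:73552536-73552835, plus strand): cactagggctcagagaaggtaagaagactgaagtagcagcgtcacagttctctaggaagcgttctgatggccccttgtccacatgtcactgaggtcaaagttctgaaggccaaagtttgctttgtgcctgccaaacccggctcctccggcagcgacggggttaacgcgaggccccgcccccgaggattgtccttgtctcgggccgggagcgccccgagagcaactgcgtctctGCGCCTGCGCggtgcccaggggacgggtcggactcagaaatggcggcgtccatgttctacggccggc
The match begins 17 bases before the start of Sucla2, at the first base of Dlst, and 39 bases past that base in Dld. Each match describes letters only, and 2 and 1 of 36 member windows held them.

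Between fumarate and oxaloacetate, 1 of 3 members fell. Mdh2, mitochondrial malate dehydrogenase, was the most abundant member, with 24623 and 29747 fragments behind 597 and 593 FPKM in the scrambled libraries. It fell to 448 and 458 FPKM (log2 change -0.39 with SE 0.021, adjusted p = 5.6e-04), 23.9% lower. Fh1, fumarase, was at 46.2 and 43.7 FPKM against 44.6 and 47.8. The groups overlapped, and the log2 change was 0.04 (SE 0.053, adjusted p = 0.65). Mdh1, cytosolic malate dehydrogenase, was at 182 and 145 FPKM against 137 and 173, with an adjusted p of 0.88 and changes of -0.40 for batch 1 and 0.26 for batch 2.

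Among the amino acid links, Glud1, the glutamate dehydrogenase that yields 2-oxoglutarate, fell from 33.0 and 33.1 to 17.7 and 18.2 FPKM. As fitted, at 45.6% lower (log2 change -0.84 with SE 0.021, adjusted p = 1.7e-04), it was next to Suclg2 among the tested members. Got2, mitochondrial aspartate aminotransferase, fell from 68.1 and 67.3 to 49.1 and 49.8 FPKM. A pseudogene, Got2-ps1, is annotated for it. Got1, the cytosolic form, was at 75.4 and 62.4 FPKM against 50.2 and 60.9. The groups of Got1 did not overlap, but the gene did not pass (log2 change -0.31 with SE 0.16, adjusted p = 0.19).

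All 3 enzymes that draw citrate and malate out of the cycle fell. Me1, the cytosolic malic enzyme that makes NADPH, fell from 41.4 and 40.9 to 25.6 and 26.0 FPKM (log2 change -0.66 with SE 0.019, adjusted p = 1.8e-04). Me2, the mitochondrial NAD-linked form, fell from 5.77 and 5.65 to 3.45 and 3.49 FPKM, 39.3% lower. Acly, which splits exported citrate into acetyl-CoA for lipid synthesis, went from 23.5 and 20.5 to 14.2 and 16.1 FPKM (log2 change -0.51 with SE 0.10, adjusted p = 0.024). Its call was the least stable. It was lost with batch as a block (adjusted p = 0.079), after median-centring (0.0611), with the length trend taken out (log2 -0.20, adjusted p = 0.20), and without scrambled 1, knockdown 1 or knockdown 2 (adjusted p = 0.071, 0.12 and 0.068). The other 17 called members passed under each of the 13 other settings in which they were tested, with the crossed pairing left aside.

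The order of the levels changed little. Mdh2, Mdh1, Suclg1, Pdhb and Idh3b were the 5 highest members in both groups, and Pdhx, Me2, Ogdh and Pcx the 4 lowest. In the scrambled libraries, 19 of 28 neighbours in the order did not overlap. Mpc1 moved from rank 25 to rank 18, Idh1 from 17 to 12 and Idh3a from 10 to 15. FPKM are scaled to gene length, but the annotation used is not given, so levels of different genes compare only roughly. Ogdh stood far below its partner Dlst in every library, with a ratio of Dlst to Ogdh of 24.2 and 24.1 in the scrambled libraries and 23.2 and 23.1 in those labelled knockdown.

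Within complexes, and between the GTP-forming and ATP-forming succinyl-CoA ligases, several ratios of FPKM moved by more than the replicates differed. Idh3b to Idh3a was 1.57 and 1.59 in the scrambled libraries and 1.97 and 1.98 in those labelled knockdown. Suclg2 to Sucla2, the GTP-forming to the ATP-forming beta subunit, was 0.770 and 0.756 against 0.586 and 0.578. The 2 groups of each ratio were far apart beside their replicates. With the length trend taken out, the log2 changes were -0.57 for Idh3b and -0.69 for Idh3a (-0.47 and -0.78 as fitted). Those of Suclg2 and Sucla2 were -0.64 and -0.47 (-0.86 and -0.52 as fitted). The changes within each pair thus lay closer together. Pdhx to Dlat was 0.639 and 0.633 against 0.552 and 0.549. Dlat to Pdhb, core to E1, was 0.192 and 0.191 against 0.161 and 0.160. As fitted Dlat fell more than Pdhb (log2 -0.59 and -0.36), but it fell less with the length trend taken out (-0.33 and -0.49). The direction of this ratio's change thus depends on the length trend. Mpc2 to Mpc1 had replicates far apart, at 2.55 and 3.52 against 2.04 and 1.53. On log2(FPKM + 1) its difference was -0.29 in batch 1 and -1.14 in batch 2. The groups of each ratio named so far did not overlap. An exact permutation test of 2 against 2 libraries, however, cannot give a two-sided p below 0.333, and each of these ratios gave that p. Pdhb to Pdha1, the E1 subunits, was at 2.59 and 3.13 against 2.72 and 2.25, with overlapping groups (exact permutation p = 0.667, two-sided).

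Of 4 pairs of cytosolic to mitochondrial isozymes compared, all but Me1 to Me2 had a higher mean log2 ratio in the libraries labelled knockdown. In batch 1 alone, Got1 to Got2 and Idh1 to Idh2 went the other way (-0.11 and -0.07). On log2(FPKM + 1), the ratio of Mdh1 to Mdh2 was -1.71 and -2.03 in the scrambled libraries and -1.70 and -1.40 in those labelled knockdown. The difference of 0.32 was 0.01 in batch 1 and 0.63 in batch 2. Got1 to Got2 differed by 0.14 and Idh1 to Idh2 by 0.05, both with overlapping groups (exact permutation p = 0.667, two-sided). Me1 to Me2 was 7.17 and 7.24 as plain FPKM against 7.42 and 7.44. On log2(FPKM + 1) that ratio differed by -0.07, and by 0.03 with a pseudocount of 0.1, so its direction depends on the pseudocount.

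**Figure D4:**
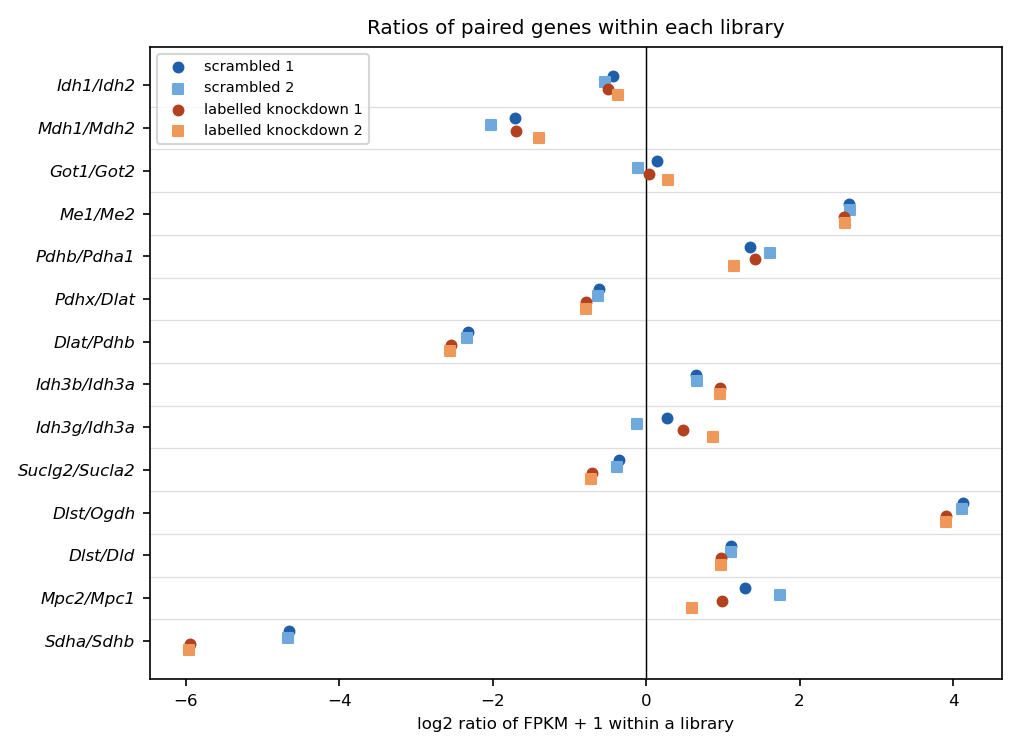
Log2 ratio of FPKM + 1 of paired genes within each library, with 1 point per library. Isozymes come first, with partners in a complex and the beta subunits of the succinyl-CoA ligases below. Idh3b/Idh3a, Suclg2/Sucla2 and Sdha/Sdhb have close replicates and separate groups, while the replicates of Mdh1/Mdh2, Idh3g/Idh3a and Mpc2/Mpc1 are far apart.

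The other genes of the pathway and its feeders were divided. Of 50 listed, 47 had a row and 42 were tested. Of these 42, 17 rose (40.5%), 15 fell (35.7%) and the other 10 missed the threshold. All tested genes gave 27.4% higher and 41.2% lower. The 42 had a median log2 change of -0.00 (batch 1 alone -0.06, batch 2 alone 0.17). Succinate dehydrogenase, the step between the succinyl-CoA ligases and Fh1, split by subunit. Sdha, which holds the flavin, fell from 11.0 and 10.9 to 5.67 and 5.79 FPKM, while the iron-sulfur subunit Sdhb rose from 301 and 299 to 412 and 422 and the membrane anchor Sdhc from 114 and 113 to 159 and 163. Sdhd, the other anchor, did not pass (155 and 127 against 125 and 154). The ratio of Sdha to Sdhb was 0.0364 and 0.0363 in the scrambled libraries and 0.0138 and 0.0137 in those labelled knockdown. The assembly factors split as well. Sdhaf2 fell from 9.92 and 10.1 to 4.31 and 4.45 FPKM (log2 -1.04). Sdhaf1 and Sdhaf3 rose by 0.96 and 0.63 on the log2 scale. With the length trend taken out, the change of Sdhb was 0.22 (0.47 as fitted) and that of Sdhaf2 -0.61, and both still passed; Sdhb was at 0.31 after quantile normalization and Sdhb and Sdhc at 0.29 and 0.32 with a common sum of FPKM. Sdhaf4 rose by 0.57 (adjusted p = 0.013), but did not pass with batch as a block (adjusted p = 0.052), without scrambled 1 (0.052) or knockdown 1 (0.061), or with the length trend taken out (log2 0.17, adjusted p = 0.22).

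Regulators of the pyruvate dehydrogenase complex moved in both directions. Of 6 tested kinase and phosphatase genes, 2 rose and 2 fell (33.3% each), beside 27.4% higher and 41.2% lower among all tested genes. The kinase Pdk4, which switches the complex off, fell from 2.27 and 2.17 to 0.786 and 0.792 FPKM (log2 -0.85, SE 0.022), and Pdk3 from 5.44 and 5.43 to 3.27 and 3.35. The kinase Pdk1 rose from 4.52 (both libraries) to 5.86 and 6.03, and the phosphatase Pdp1 from 1.34 and 1.33 to 1.98 and 2.02. With the length trend taken out Pdk1 and Pdp1 were higher by 0.68 and 0.66 (0.33 and 0.36 as fitted), and with a common sum of FPKM Pdk1 was higher by 0.17. Pdk2 and Pdp2 did not pass (adjusted p = 0.18 and 0.72), but Pdk2 passed as lower with a common sum (log2 -0.24, adjusted p = 0.013) and Pdp2 as higher with the length trend taken out (log2 0.34, adjusted p = 0.015). Of the genes that attach lipoate to the E2 cores Dlat and Dlst, Lias fell from 9.88 and 9.89 to 6.09 and 6.24 FPKM and Lipt1 from 3.75 and 3.73 to 2.43 and 2.49. Lipt2, which transfers the octanoyl precursor, rose from 4.40 and 4.31 to 7.98 and 7.96.

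Carriers and enzymes at the borders of the pathway moved in both directions. Slc25a1, the citrate carrier of the inner membrane, rose from 101 (both scrambled libraries) to 199 and 202 FPKM (log2 0.98, SE 0.019), while Acly, which acts on the exported citrate, was lower as above. Slc16a3, a lactate exporter, rose from 7.80 and 7.51 to 16.2 and 15.6, and Acss2, which makes acetyl-CoA from acetate, from 2.04 and 2.03 to 4.04 and 4.17. Slc25a12 and Slc25a13, the aspartate and glutamate carriers that work with Got1 and Mdh1 in the malate-aspartate shuttle, fell by 0.99 and 0.44 on the log2 scale, and the glutamate carrier Slc25a22 by 0.23. Median-centring and quantile normalization ended the call of Slc25a22 (adjusted p = 0.31 and 0.15). The dicarboxylate carrier Slc25a10 had a change of -0.14 and an adjusted p of 0.034, and lost its call with the batch block, under median-centring or quantile normalization, and without any 1 of the 4 libraries. With the length trend taken out, Slc25a12 and Slc25a22 still passed, at -0.59 and -0.11. Slc25a11 and Slc16a1 did not pass (adjusted p = 0.99 and 0.30). Slc16a1 passed as higher under median-centring, quantile normalization and with the length trend taken out (log2 0.22, 0.13 and 0.35, adjusted p = 0.0068, 0.035 and 0.0032).

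Ldhb, a lactate dehydrogenase subunit, rose from 13.2 and 13.3 to 22.9 and 23.9 FPKM, and the far more abundant Ldha did not pass, at 573 and 467 against 509 and 637. Among glutamine and alanine enzymes, Gpt2 fell from 20.1 (either library) to 10.2 and 10.4 FPKM and Gls2 from 3.12 in both to 1.83 and 1.88, and glutamine synthetase, Glul, fell by 0.42 on the log2 scale. The cytosolic alanine aminotransferase, Gpt, rose by 0.53. The last group was also mixed. Oxct1, of ketone body use, fell by 0.65. D2hgdh rose by 0.37, and Mcee, of propionate breakdown, by 0.66 (0.56 and 0.30 with the length trend taken out). Pck2 was at the edge of the threshold (log2 0.24, adjusted p = 0.05044), and Acat1, Pccb and Clybl did not pass (adjusted p = 0.71, 0.99 and 0.52). Median-centring, quantile normalization and taking out the length trend each let Pck2 pass (adjusted p = 0.00437, 0.033 and 0.0056). Clybl passed as higher under median-centring (log2 0.19, adjusted p = 0.0085) and as lower with the length trend taken out (log2 -0.20, adjusted p = 0.0026). Of the other called genes named here, median-centring moved Pdk1 to 0.50, Glul to -0.24, Lipt1 to -0.28 and Slc25a13 to -0.27, a pseudocount of 0.1 moved Pdk4 to -1.38 and Pdp1 to 0.55, and a common sum of FPKM moved Slc25a10 to -0.32 and Slc25a22 to -0.39, each still past the threshold.

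**Figure D5:**
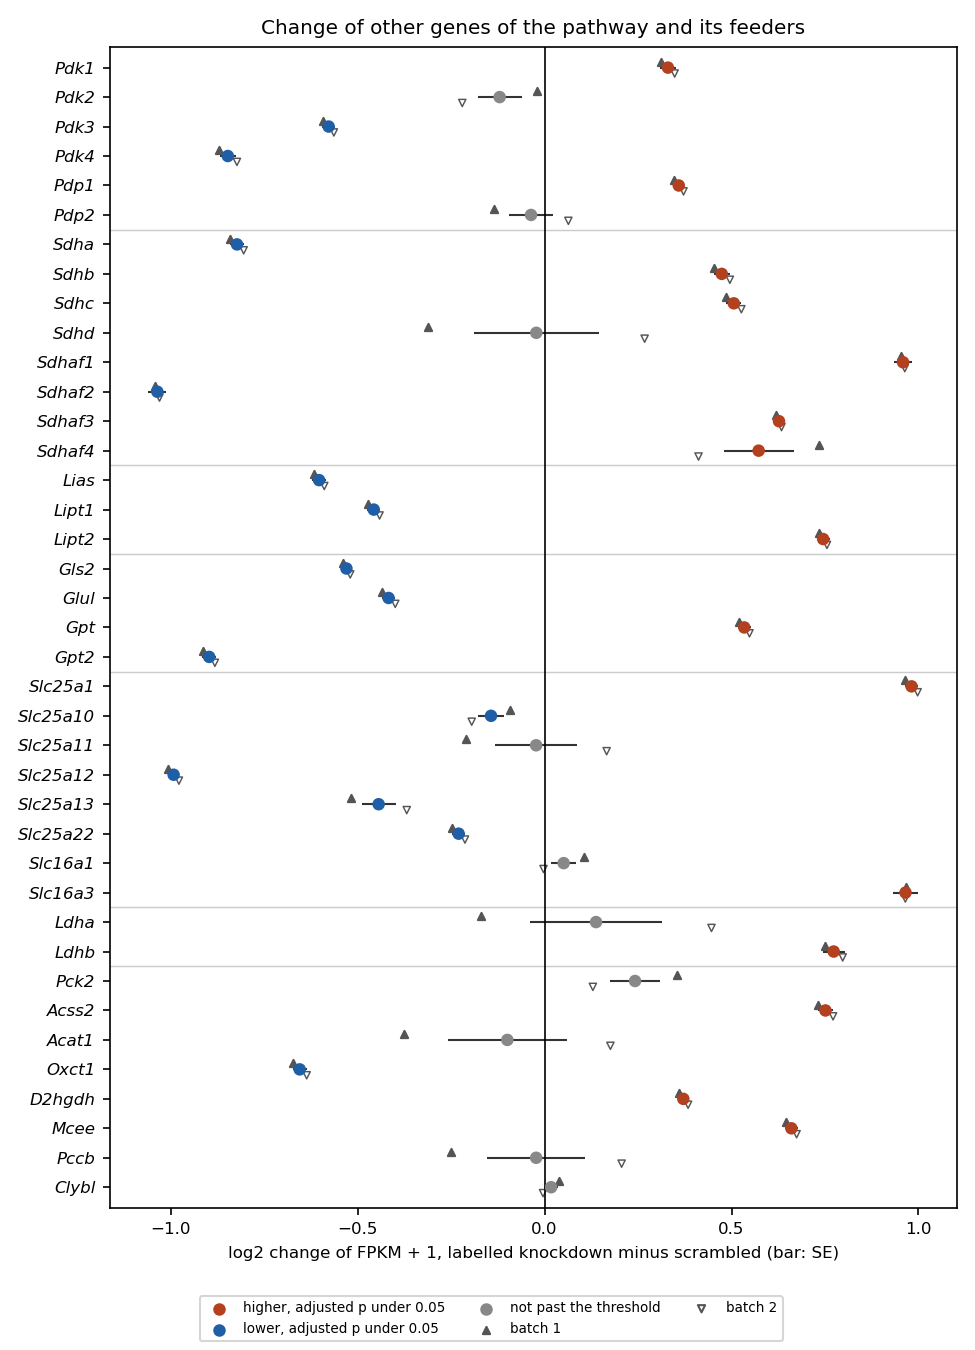
Log2 change of FPKM + 1 of 39 tested other genes of the pathway and its feeders, libraries labelled knockdown minus scrambled, with the standard error (bar) and the values in batch 1 and batch 2 (triangles). Red points rose (15), blue points fell (14) and grey points did not pass (10).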

How the data were processed

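Polysome RNA was sequenced in 4 libraries, 2 per group. Per the labels' protocols, messenger RNA was captured on beads, fragmented by heat and made into cDNA libraries. The authors deposited FPKM per gene, 1 column per library, and all 4 value columns were used (0 left out). Per the submitters' processing notes the builds were GRCm38, mm10 and GRCm39, with no role given. Not given in the sources used here are aligner, counter, annotation, strandedness and how multi-mapping reads were treated, so reads of overlapping genes cannot be told apart.

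Genes with a mean of at least 1 FPKM (8750 of 18200) were fitted on log2(FPKM + 1), a scale that understates changes of low genes, with limma 3.58.1 in R 4.3.3 with a mean-variance trend (3.06 degrees of freedom), the 2 groups against each other. Tests were two-sided, with Benjamini-Hochberg adjustment across all tested genes and a threshold of 0.05. The fit and the fragment recovery were tested on simulated libraries that vary independently, so these tests do not cover the mirrored replicates seen here. The replicate number and the batch coincide in the labels, which pairs the libraries. The replicate differences were negatively correlated between groups (r = -0.83), and the part of batch in this was not tested. The fit without the block is the one reported. Whole fragments were recovered for 8693 of the tested genes (99.3%) from steps of the FPKM and gave the counting error, which is all they cover; true numbers can be a multiple. The median SE was 0.0208 and the median counting SE 0.0382, so p-values can understate the error. Transcript lengths (exon union, GENCODE M21) were matched for 8456 tested genes. Ratios were tested by exact permutation. Tables and figures used Python 3.11.15, pandas 2.3.3, scipy 1.17.1 and matplotlib 3.10.9.

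Named were all 29 members, the tested genes of the list of other pathway genes, of which a few are counted but not reported here, and Ifit1; the few others are marked as looked up after values were seen. Members and lists were chosen with earlier results of these data known.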

Additional observations from a re-analysis of the deposited data

How the results depend on the processing

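Of the 18 called members, 17 kept their call under the 13 other settings run on each (12 for Me2 and Ogdh), with adjusted p of at most 0.038 (Ogdh, length trend), and Acly lost it in 6. The members lower numbered 17, with 16 under median-centring, 16 with the replicate block and 16 to 17 without 1 library; 1 was higher in each of these. Without a filter 2 members and 3819 of all genes were higher. With a minimum mean of 5 FPKM, fewer genes were tested; 1583 were higher and 2213 lower (2401 and 3608 as reported), and 8 other pathway genes were lower (15 as reported). With the replicate block, 2205 genes were higher and 3417 lower; among the genes named it ended the calls of Acly, Sdhaf4 and Slc25a10 and no other. A crossed pairing (replicate 1 with replicate 2), chosen after the data were seen, gave 4 members higher and 23 lower, and 2962 and 4282 of all genes. The common sum of FPKM was also chosen after the data were seen.

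Directions turned for no called member, and the cause was not tested; with the length trend taken out, Pdp2 and Clybl passed in the turned direction. As log2 changes, under median-centring these were Mpc2 0.15, Pdha1 0.014, Aco1 0.030, Mdh1 0.10, Pdk2 0.053, Pdp2 0.14, Sdhd 0.15, Slc25a10 0.030, Slc25a11 0.15, Acat1 0.074 and Pccb 0.15; under quantile normalization Mpc2 0.032, Pdp2 0.025, Ldha -0.054 and Pccb 0.094; with the length trend taken out Aco1 0.085, Pdp2 0.34, Acat1 0.078, Pccb 0.035 and Clybl -0.20; and with a common sum Idh1 -0.033, Idh2 -0.085, Fh1 -0.14, Ldha -0.048, Clybl -0.11 and Slc16a1 -0.073. The Me1/Me2 difference was 0.031 with a pseudocount of 0.1. Over the fits without 1 library, in which a lone library is assumed to vary like the others, the ranges were Aco1 -0.39 to 0.11, Idh3g -0.39 to 0.026, Mdh1 -0.24 to 0.096, Pdp2 -0.088 to 0.016, Sdhd -0.17 to 0.13, Slc25a11 -0.12 to 0.077, Acat1 -0.24 to 0.042, Pccb -0.14 to 0.093, Mpc2 -0.24 to 0.19, Fh1 -0.0099 to 0.088, Ldha -0.024 to 0.30, Idh1 -0.0013 to 0.30 and Idh1/Idh2 -0.013 to 0.11. With 2 libraries a group, spread is poorly known, and of the members Pcx and Ogdh rest on the fewest fragments.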
